A study of Mus musculus with 28 samples.

Results

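The growth hormone (GH) and insulin-like growth factor (IGF) axis was followed through 10 genes: the receptor gene Ghr, the ligand gene Igf1, the carrier gene Igfals, the binding protein genes Igfbp1, Igfbp2 and Igfbp3, the feedback inhibitor genes Socs2, Socs3 and Cish, and the transcription factor gene Stat5b. The genes were chosen by name, for their place in the axis, out of 35928 gene symbols in the liver and pancreas series (called set 2) and 24845 gene rows in the liver and lung table (called set 1), and all 10 were found in both. The mice carried human APOBEC3B (A3B) fused to turboGFP behind a tetracycline operator in the ColA1 locus, placed there through KH2 embryonic stem cells, and A3B animals also carried the CAGs-rtTA3 driver, a constitutive transgene that is active in many cell types. RNA-seq was made from whole tissue. Set 2 held livers of 6 A3B mice and 2 controls and pancreases of 6 A3B mice and 2 controls, and 5 of the A3B mice and both controls gave both tissues. The labels give 10 days of doxycycline food for all 16 samples of set 2, controls included, while another passage of the study describes these controls as not given doxycycline. Controls 45 and 168 carried A3B without the driver by their liver labels. The genotype labels of A3B pancreases 44 and 137 and of both control pancreases are the reverse of their titles, and the titles were followed here. Set 1 held 3 A3B livers (mice 23, 28 and 70), 3 control livers (11, 91 and 92), 3 A3B lungs (69, 70 and 74) and 3 control lungs (87, 88 and 91), so that mice 70 and 91 gave both tissues. The labels of set 1 give 14 days of doxycycline for A3B livers 23 and 28, 10 days for the other A3B samples and 15 days for the controls, while a table of the study lists controls 11, 88, 91 and 92 with no days of doxycycline and control 87 with fewer days than its label, so the treatment of these controls is not settled. Control liver 11 is labelled A3B + CAGS-rtTA, the genotype of the A3B group, control lung 87 is labelled CAGs, and the other controls of set 1 are labelled A3B.

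GH from the pituitary binds GHR on hepatocytes and activates the kinase JAK2, which phosphorylates STAT5B, and STAT5B then drives transcription of Igf1, Igfals, Socs2 and Cish. IGF1 circulates mostly in a complex with IGFBP3 and the acid-labile subunit encoded by Igfals, while IGFBP1 and IGFBP2 bind it in smaller complexes. The products of Socs2, Socs3 and Cish damp cytokine receptor signalling, and Socs3 is also a target of STAT3 downstream of interleukin-6 type cytokines. Hepatic Igfbp1 is known to be repressed by insulin and raised by fasting and cell stress.

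On GRCm38 the genes lie on 6 chromosomes, and Igfbp1 (chr11:7197782-7202546, plus strand) and Igfbp3 (chr11:7206086-7213923, minus strand) lie next to one another with their ends facing. Ghr lies at chr15:3317760-3583492 and Igf1 at chr10:87858265-87937042. Igf1 overlaps the antisense gene Igf1os, and Cish overlaps Gm17040 and Gm17041 on the opposite strand, and whether the quantification used strand is not given in the sources used here. The RefSeq promoter table (GRCm38.p6) has windows of 300 bases, from 250 bases before to 50 bases after each start, for 9 of the 10 genes. Because STAT5 and STAT3 recognise the palindrome TTCNNNGAA, the windows were searched for these letters, which read the same on both strands. The palindrome stood in 4 of the 14 windows of these genes, which belong to 3 genes (Igfals, Socs3 and Cish), and in 8.3% of all 32851 windows. Cish held 2 copies in its window, as 0.457% of all windows hold 2 or more. The stretches of 30 bases around them are shown 5′ to 3′ on the strand of the gene, with the palindrome in capitals, because these genes gave the feedback and carrier results below.
Cish, chr9:107296654-107296683, plus strand: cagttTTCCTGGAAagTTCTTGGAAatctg
Socs3, chr11:117969501-117969530, minus strand: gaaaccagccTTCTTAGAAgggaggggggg
Igfals, chr17:24877598-24877627, plus strand: gatctataatTTCTCAGAAaagaggctgag
Igfals, chr17:24878163-24878192, plus strand: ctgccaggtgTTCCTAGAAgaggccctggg
The Cish copies began at the RefSeq start and 11 bases after it, the Socs3 copy 154 bases before its start, and the Igfals copies 236 and 58 bases before 2 different starts. A match of letters is a description of the sequence.

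Levels are given as TPM, transcript abundances scaled to transcript length and to the same total in every library, and were summed over the transcripts of each gene in set 2. Fold changes in set 2 came from the estimated counts, scaled by the trimmed mean of M values (TMM) and tested with edgeR's quasi-likelihood test. Those in set 1 came from limma on log2(TPM + 1), over genes whose mean TPM in the tissue reached 1. A gene was called when its p adjusted over all genes tested was under 0.05. Estimated counts summed to between 65161064 and 118976013 per library in set 2, and no depth is known for set 1. Levels of the sets were made separately and are not compared with each other. Hepatocyte markers (9 of a list of 10 were found) summed to 32679 to 83970 TPM in the 6 A3B livers of set 2 and to 85014 and 143255 TPM in the controls. In set 1 they summed to 6246 to 7941 TPM in A3B livers and to 8670 to 9989 TPM in control livers. Much of the sum in set 2 was Alb, the albumin gene, and the 8 other markers summed to 13326 to 39846 TPM in A3B livers and to 30345 and 35449 TPM in controls, which overlapped. None of the 9 markers was called in set 2 by edgeR, where 3 had an unadjusted p under 0.05 and Hnf4a (0.63) and Fgb (0.15) had positive log2 fold changes. In set 1 the 8 other markers were apart, at 5260 to 6181 TPM in A3B livers and 7244 to 8016 TPM in controls, and 1 of 9 fell by limma, Serpina1c (-1.72, adjusted p = 0.0414). A3B liver 48 of set 2 stood apart in other markers: macrophage markers summed to 45.8 TPM there and to 513.1 to 1706 TPM in the other 7 livers, endothelial markers to 20.8 TPM and 128.8 to 183.3 TPM, and fibroblast and stellate markers to 27.7 TPM and 79.6 to 226.6 TPM. Their part in the results was not tested, and without this liver 2 of the 10 axis genes were called by edgeR in place of 1 (Ghr lower and Igfbp1 higher). Adipocyte markers (6 of 6 found) summed to 17.9 to 188.3 TPM in A3B livers and 5.69 and 6.19 TPM in controls of set 2, and to 111.3 to 526.9 TPM and 8.59 to 11.9 TPM in set 1. Nearly all of this was Cidec, a lipid droplet gene, at 17.7 to 175.9 TPM and 111.3 to 526.3 TPM in the A3B livers, while Adipoq and Plin1 did not exceed 1.51 TPM and Lep was at 0 in every liver. Cidec was not called in set 2 (3.74; edgeR, adjusted p = 0.0868) and rose in set 1 (4.56; limma, adjusted p = 0.0130) and over both sets (3.74; exact permutation test, adjusted p = 0.0115). Among the markers of other cells in set 1, Lyve1 (3.27), Marco (1.58) and Sftpa1 (3.36) rose and Cela1 fell by 3.33 (limma, adjusted p = 0.0231, 0.0385, 0.0448 and 0.0130). In set 2 Cela1 fell too (-2.68; edgeR, adjusted p = 0.0262). Over both sets Cela1 (-2.88) and Hopx (-0.44) fell and Sftpa1 (3.09) and Lyve1 (2.54) rose (exact permutation test, adjusted p = 0.0115, 0.0172, 0.0115 and 0.0466). Acinar markers summed to 282.0 and 560.6 TPM in A3B livers 44 and 153 of set 2. They summed to 6.80 to 19.3 TPM in the other A3B livers and 79.4 and 121.5 TPM in controls. The part of these markers in the liver results was not tested. Lung epithelial markers summed to 18607 to 20260 TPM in A3B lungs and 19632 to 20961 TPM in control lungs, and acinar markers led in the pancreas. Human A3B was read at 705.0 to 1705 TPM in the A3B livers and 90.6 to 281.0 TPM in the A3B lungs of set 1, and at no more than 0.526 TPM in any control. The mice were separate animals within each group.

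The receptor, the ligand and its carrier were lower in every A3B liver than in any control liver of the same set, and Igfbp2 was lower with them, while Igfbp1 was higher in every A3B liver. In set 2 only Ghr among the 10 genes passed the edgeR threshold, against 3.66% of 17376 genes called (1.25% higher and 2.41% lower). In set 1 Ghr, Igfals and Igfbp2 fell and Igfbp1 rose by limma, so 4 of 10 genes were called against 7.93% of 11507 (6.07% higher and 1.86% lower). In set 2, 5 genes did not overlap between the groups (Ghr, Igf1, Igfals and Igfbp2 lower, Igfbp1 higher), against 29.7% of all genes, of which 5.42% were lower and 24.3% higher. In set 1 these 5 genes and Socs3, higher, did not overlap, against 38.9% of all genes (10.3% lower and 28.5% higher). The median log2 fold change of the 10 genes was -1.18 in set 2, where all genes had a median of 0.21, and -0.05 in set 1, where all genes had a median of 0.39. Of all genes, 218 were called higher and 418 lower in set 2, against 878 and 241 with counts scaled by their totals alone. In set 1, 699 were called higher and 214 lower, against 271 and 458 once samples were shifted to the same median.

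**Figure D1:**
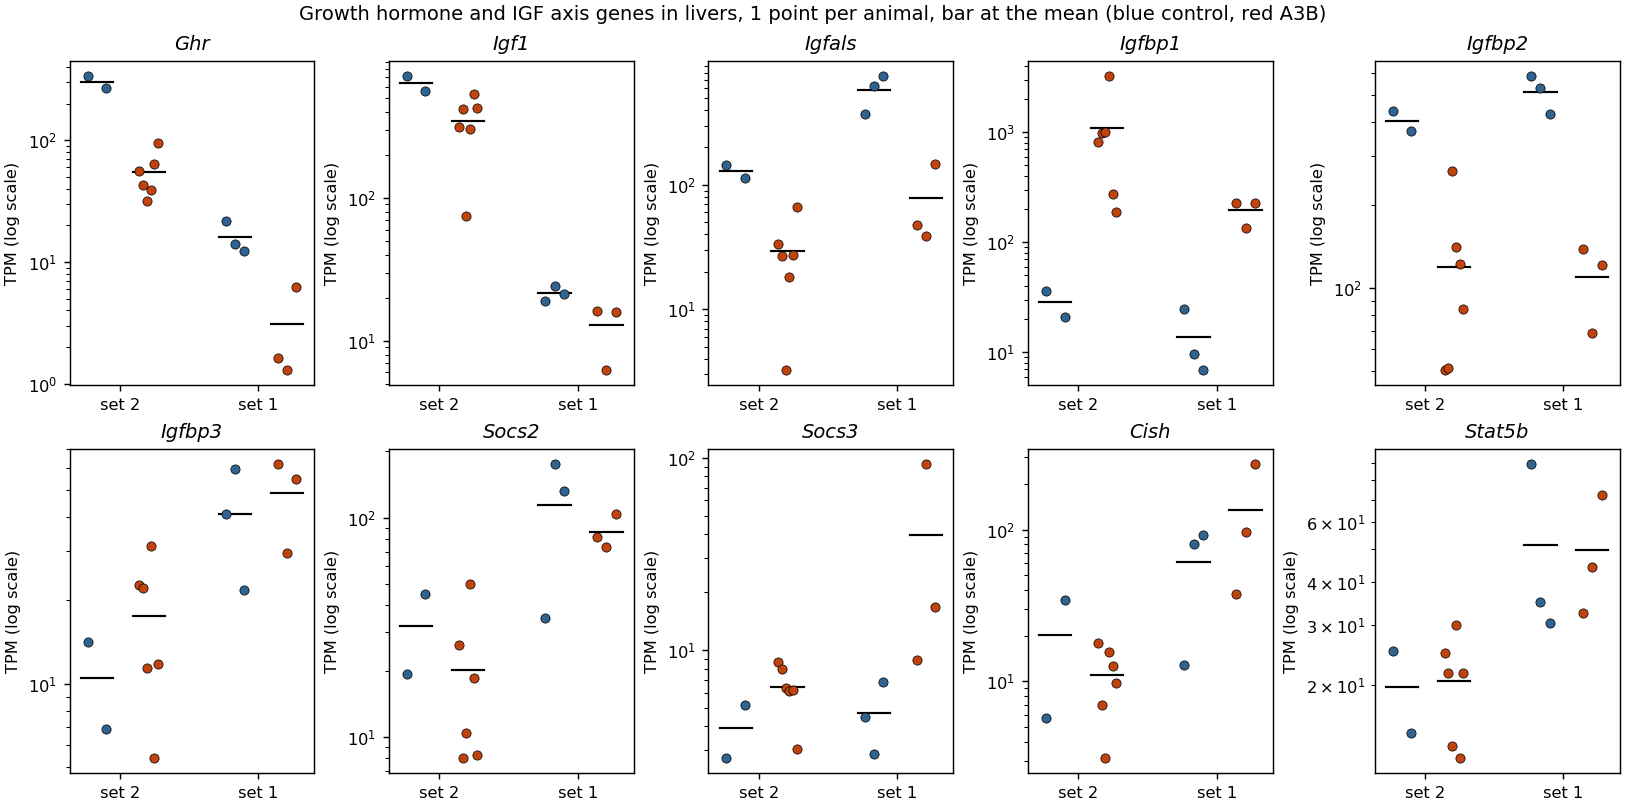
Levels of the 10 axis genes in livers, in TPM on a log axis, with 1 point per animal (blue for control, red for A3B) and a bar at the group mean, set 2 on the left of each panel (2 controls, 6 A3B) and set 1 on the right (3 and 3). Ghr, Igf1, Igfals and Igfbp2 sit lower and Igfbp1 sits higher in every A3B liver of both sets, while the points of Igfbp3, Socs2, Cish and Stat5b overlap.

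Ghr, the GH receptor, was at 340.2 TPM in control liver 45 and 269.9 TPM in control liver 168. In the A3B livers of set 2 its lowest level was 31.5 TPM, its median 49.4 TPM and its highest 96.1 TPM. The groups did not overlap, and the highest A3B liver (mouse 153) was still well below the lower control. The mean was 54.9 ± 23.3 TPM (SD, n = 6) against 305.0 ± 49.7 TPM (SD, n = 2), 5.55-fold lower, and on the TMM scale Ghr fell by 3.04 (SE 0.43) on the log2 scale (edgeR, adjusted p = 0.00871). Without control 45 or control 168, which leaves a single control, the adjusted p by edgeR was 0.0520 and 0.0523, with log2 fold changes of -3.10 and -3.15. In set 1 Ghr was at 21.7, 14.0 and 12.4 TPM in control livers 11, 91 and 92 and at 1.61, 1.29 and 6.28 TPM in A3B livers 23, 28 and 70. All 3 A3B livers were below all 3 controls, and mouse 70, with fewer days on doxycycline, was the highest of the A3B livers. Ghr fell by 2.24 (SE 0.49) on the log2(TPM + 1) scale (limma, adjusted p = 0.0414). This limma call was lost without any of control 11 (0.0692), control 91 (0.178), control 92 (0.163), A3B 23 (0.112) or A3B 28 (0.0582), given as adjusted p. In bulk tissue, fewer hepatocytes and less of a transcript in each hepatocyte cannot be told apart. Of the hepatocyte markers in set 2, Alb was lower in every A3B liver and the sum of the others overlapped between the groups, as given above. Per 100 TPM of Alb, Ghr was at 0.316 and 0.494 in the controls of set 2 and 0.128 to 0.270 in the A3B livers, and in set 1 at 0.609 to 1.52 in controls and 0.128 to 0.357 in A3B livers, a ratio chosen after seeing the data. The groups were apart relative to Alb in both sets.

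The annotation gives 10 transcripts for Ghr. In mice the circulating GH binding protein is made from a shorter spliced transcript of this gene, which lacks the membrane-spanning part. Transcripts Ghr-201 and Ghr-208 have a coding length of 1950 bases and are called the long frame here, and Ghr-202 and Ghr-203 have a coding length of 891 bases and are called the short frame. The long frame summed to 107.5 and 82.9 TPM in the control livers of set 2 and ranged from 4.44 to 20.3 TPM in the A3B livers, with a median of 9.61 TPM. The short frame summed to 205.0 and 169.3 TPM in controls and ranged from 20.9 to 67.2 TPM in A3B livers, with a median of 35.7 TPM. Both forms were lower in every A3B liver. The long frame made up 31.6% and 30.7% of the TPM of Ghr in the controls and 10.3% to 26.9% in the A3B livers, with a median of 20.3%, so the shares did not overlap. The ratio of short to long was 1.91 and 2.04 in controls and 2.46 to 7.58 in A3B livers. In the pancreas the long frame had shares of 25.8% and 32.6% in controls and 21.7% to 36.6% in A3B mice, which overlapped. These shares are kallisto's division of reads among transcripts that share exons, and no test was run on them.

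Igf1, the ligand, was at 714.8 TPM in control liver 45 and 557.0 TPM in control liver 168 of set 2. The A3B livers ranged from 75.1 TPM (mouse 49) to 530.1 TPM (mouse 48), with a median of 364.2 TPM. All 6 were below both controls, but mouse 48 came close to control 168 and mouse 49 stood far below the other A3B livers. Igf1 had a log2 fold change of -1.59 (SE 0.55) that did not pass the threshold (edgeR, adjusted p = 0.127). Without A3B 49 it passed, at -1.46 (edgeR, adjusted p = 0.0388). In set 1 the control livers were at 18.99, 23.9 and 21.3 TPM and the A3B livers at 16.2, 6.22 and 15.9 TPM. The A3B livers were again all below the controls, by a narrow margin for mice 23 and 70. The log2 fold change of Igf1 in set 1 was -0.80 (SE 0.40; limma, adjusted p = 0.206). The main transcript, Igf1-206, made up 42.9% and 49.1% of Igf1 in the controls of set 2 and 46.8% to 57.6% in the A3B livers.

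Igfals encodes the acid-labile subunit, a hepatic protein that holds IGF1 and IGFBP3 in the circulating complex. Its level in set 2 was 145.7 and 114.5 TPM in the control livers and ran from 3.24 TPM (mouse 49) through a median of 27.2 TPM to 66.5 TPM (mouse 153) in the A3B livers. Each A3B liver was below both controls, and mice 49 and 153 were at the ends of the A3B range as they were for Ghr. In liver 48 the full-length coding transcript held 1.46 of 27.4 TPM of Igfals, or 5.32%, against 28.8% to 42.0% in the other 7 livers. This transcript was at 1.17 to 19.1 TPM in the other A3B livers and 39.9 and 61.2 TPM in controls. A processed transcript, not annotated as protein-coding, made up 50.8% and 58.1% of the Igfals TPM in the control livers. The log2 fold change of -2.64 (SE 0.69) did not pass (edgeR, adjusted p = 0.0655), but did without A3B 49 (-2.47, adjusted p = 0.0110) or without A3B 153 (-3.05, adjusted p = 0.0454), and with DESeq2 (-2.72, adjusted p = 0.00870). In set 1 the control livers stood at 370.2, 625.7 and 753.1 TPM and the A3B livers at 47.3, 38.7 and 147.4 TPM. The lowest control, liver 11, was above the highest A3B liver, mouse 70. Igfals fell by 3.09 (SE 0.55) on the log2(TPM + 1) scale (limma, adjusted p = 0.0285). That call was lost without control 91 (adjusted p = 0.136), control 92 (0.137) or A3B 23 (0.0924) by limma.

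Igfbp1, the binding protein that insulin represses, moved the other way. It was at 35.7 and 21.1 TPM in the control livers of set 2 and at 187.1 TPM (mouse 153) to 3256 TPM (mouse 125) in the A3B livers, with a median of 894.7 TPM. The groups were far apart, with 38.3-fold more in the A3B mean, and the 6 A3B livers also spread widely among themselves. The log2 fold change of 4.94 (SE 1.25) did not pass (edgeR, adjusted p = 0.0589) and passed without A3B 125 (4.05, adjusted p = 0.0466), A3B 48 (5.06, 0.0478) or A3B 153 (5.16, 0.0450). It also passed with DESeq2 (4.88, adjusted p = 4.68e-06), with limma on log2(TPM + 1) (4.66, 0.0228) and with counts scaled by totals in edgeR (5.32, 0.0365), and by edgeR its adjusted p was 0.353 without control 45 and 0.389 without control 168. In set 1 Igfbp1 was at 24.6, 9.60 and 6.87 TPM in the controls and at 228.1, 133.4 and 225.3 TPM in the A3B livers. The highest control was liver 11. Igfbp1 rose by 3.89 (SE 0.49) on the log2(TPM + 1) scale (limma, adjusted p = 0.0133), a call lost without control 91 (adjusted p = 0.0825), control 92 (0.0749) or A3B 23 (0.0584) by limma. Per 100 TPM of Alb, Igfbp1 was 0.0331 and 0.0385 in the controls of set 2 and 0.424 to 11.0 in the A3B livers. The same ratio in set 1 was 0.337 to 1.72 in controls and 12.8 to 18.1 in A3B livers. Alb was lower in every A3B liver of set 2, so there this ratio had to be apart for a gene that was higher.

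Relative to Alb, the other genes that were lower in every A3B liver of set 2 overlapped between the groups. Per 100 TPM of Alb, Igfals was at 0.135 and 0.209 in the controls of set 2 and 0.0168 to 0.151 in the A3B livers. On the same ratio Igf1 was at 0.663 and 1.02 in controls against 0.388 to 2.24, and Igfbp2 at 0.404 and 0.678 against 0.116 to 1.37. In set 1 Igfals (25.9 to 37.0 in controls, 3.75 to 8.37 in A3B livers) and Igfbp2 (21.0 to 41.1 and 6.87 to 10.9) were apart, and Igf1 (1.04 to 1.33 and 0.631 to 1.28) overlapped.

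Igfbp2, the other small-complex binding protein, was at 435.8 and 370.8 TPM in the control livers of set 2. In the A3B livers it ran from 50.4 TPM (mouse 44) through a median of 103.1 TPM to 264.4 TPM (mouse 49). Mouse 49, the lowest liver for Ghr, Igf1 and Igfals, was the highest A3B liver for Igfbp2. In liver 48 the full-length coding transcript held 21.5 of 122.1 TPM of Igfbp2, and it was at 41.5 to 201.2 TPM in the other A3B livers and 299.4 and 359.0 TPM in controls. Without liver 48 neither Igfals (-2.79, adjusted p = 0.0672) nor Igfbp2 (-2.24, adjusted p = 0.0684) was called by edgeR, as with it. The log2 fold change of -2.15 (SE 0.56) did not pass (edgeR, adjusted p = 0.0641) and passed without A3B 49 (-2.59, adjusted p = 0.0130) and with DESeq2 (-2.22, adjusted p = 0.0110). In set 1 the controls were at 586.4, 529.2 and 427.2 TPM and the A3B livers at 138.1, 68.5 and 120.8 TPM. Igfbp2 fell there by 2.27 (SE 0.36) on the log2(TPM + 1) scale (limma, adjusted p = 0.0223), and the call was lost without control 91 (adjusted p = 0.116), control 92 (0.115) or A3B 23 (0.0589) by limma. Igfbp3, which carries most circulating IGF1 and is made in the liver mainly by cells other than hepatocytes, overlapped between groups in both sets. Its levels were 14.2 and 6.88 TPM in controls and 5.40 to 31.4 TPM in A3B livers of set 2, with a log2 fold change of 0.37 (edgeR, adjusted p = 0.721). In set 1 its log2 fold change was 0.30 (limma, adjusted p = 0.676), or -0.16 once samples were shifted to the same median.

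The feedback inhibitors and Stat5b gave no call in either set of livers. Socs3, the inhibitor that STAT3 also drives, was at 2.73 and 5.15 TPM in the controls of set 2 and at 3.07 to 8.64 TPM in the A3B livers, where 5 of 6 were above both controls. In set 1 it was at 4.47, 2.87 and 6.82 TPM in controls and at 8.92, 93.0 and 16.7 TPM in A3B livers 23, 28 and 70. All 3 A3B livers of set 1 were above the controls, but mouse 28 set most of the mean, and the log2 fold change of 2.21 (SE 0.78) did not pass (limma, adjusted p = 0.105). Socs2, the inhibitor of GHR signalling, was at 19.5 and 44.9 TPM in controls and 7.997 to 49.9 TPM in A3B livers of set 2 (log2 fold change -1.11; edgeR, adjusted p = 0.319). Its set 1 levels were 35.0 to 175.6 TPM in controls and 73.0 to 103.4 TPM in A3B livers, inside the control range (log2 fold change -0.14; limma, adjusted p = 0.885). Cish, the inhibitor whose window holds 2 palindromes, was at 5.71 and 34.4 TPM in controls and 3.11 to 17.96 TPM in A3B livers of set 2. Its log2 fold changes were -1.24 in set 2 (edgeR, adjusted p = 0.322) and 1.11 in set 1 (limma, adjusted p = 0.420), and the set 2 value ran from -2.16 to 0.78 as single livers were left out. Stat5b, the transcription factor, was at 14.5 and 25.1 TPM in controls and 12.2 to 29.9 TPM in A3B livers of set 2 (log2 fold change -0.33, or 0.08 with counts scaled by totals; edgeR, adjusted p = 0.584).

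The livers of both sets were then tested together, with sample labels permuted within each set (two-sided exact permutation test over 560 arrangements, adjusted over 10150 genes). Here 5 of 10 genes were called, against 35.8% of all genes, of which 28.4% were higher and 7.37% lower, so that the share of the axis genes was near the background and the share called lower, 3 of 10, was above it. Ghr (-2.39), Igfbp1 (4.27) and Igfbp2 (-2.14) each had p = 0.00179, the smallest that the exact test can give, and an adjusted p of 0.0115. By the same test 2 of 9 hepatocyte markers fell, Ttr (-1.17, adjusted p = 0.0115) and Alb (-0.90, adjusted p = 0.0172), and no hepatocyte marker rose. The part of these markers in the axis values was not tested. Igfals had a difference of -2.79 (exact permutation p = 0.00357, adjusted p = 0.0172) and lost the call without control 45 (adjusted p = 0.0732) or control 168 (0.0623). Socs3 had a difference of 1.39 (exact permutation p = 0.00714, adjusted p = 0.0267), and lost the call without control 45 (0.127), control 11 (0.112), control 91 (0.125) or control 92 (0.103). The Socs3 call was also lost when samples were shifted to the same median (0.97, adjusted p = 0.189), a step that moved the median of all genes from 0.38 to -0.05. Igf1 had a difference of -0.95 with an adjusted p of 0.103 by the exact permutation test, and passed after that shift (-1.37, adjusted p = 0.0404) or without A3B 49 (-0.75, adjusted p = 0.0206). Igfbp3 (0.43), Socs2 (-0.49), Cish (0.29, or -0.13 after the shift) and Stat5b (0.04, or -0.39 after the shift) were not called.

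Y-chromosome genes were expressed in A3B livers 125, 137 and 153 and control 168 of set 2 and not in A3B livers 44, 48 and 49 and control 45. In set 1 they were expressed only in control liver 11. Within each class of set 2 there were 3 A3B livers and 1 control, so values are given with no test. Ghr differed by -2.79 on the log2(TPM + 1) scale in the class without Y expression and by -2.28 in the class with it. Igfals differed by -3.19 and -1.80, Igf1 by -1.62 and -0.56, Igfbp1 by 4.06 and 5.26, and Igfbp2 by -1.88 and -2.12, in that order. For these 5 genes all 3 A3B livers lay on the same side of the control in both classes. This had to follow, since these genes did not overlap between the groups before the livers were split. With Y expression as a covariate in edgeR, 1 of 10 genes was called in set 2, as without it. In set 1 the same covariate left 3 calls by limma, those of Igfals, Igfbp1 and Igfbp2, and Ghr had an adjusted p of 0.0687.

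GH is released in pulses in male rodents and more evenly in females, and hepatic STAT5B turns this pattern into sex-biased liver expression. Of 10 genes listed as higher in male liver, 2 fell in set 2 and none rose by edgeR, against 2.41% of all genes called lower, with a list median of -3.51 on the log2 scale. Slco1a1, an organic anion transporter, had a mean of 1.90 TPM in the A3B livers and fell by 6.77 (SE 0.57) on the log2 scale (edgeR, adjusted p = 0.00297). Ugt2b38, a glucuronosyltransferase gene, was near the detection limit in A3B livers, at a mean of 0.0722 TPM (log2 fold change -6.76, adjusted p = 0.00444 by edgeR). Of 12 genes listed as higher in female liver, 1 fell and none rose, with a median of -2.70, and that gene was Ntrk2 (log2 fold change -4.47; edgeR, adjusted p = 0.0219). Ntrk2 was at 4.90 TPM in control 45 but at 0.141 TPM in control 168, against 0.0806 to 0.245 TPM in the A3B livers, which overlapped control 168, and it was not called with Y expression as a covariate. In set 1, 3 of 9 male-biased genes tested fell by limma, against 1.86% of all genes called lower: Cyp7b1 (-3.10, adjusted p = 0.0109), an oxysterol hydroxylase, Slco1a1 (-4.58, adjusted p = 0.0233) and Hsd3b5 (-5.78, adjusted p = 0.0277). None of 10 female-biased genes tested was called in set 1 by limma, and none had an unadjusted p under 0.05, in a fit where control 11 is the only liver with Y-chromosome expression. With Y expression as a covariate or without control 11, both chosen after seeing the data, 1 of these 10 fell (A1bg), 3 had an unadjusted p under 0.05 and the median moved from -0.53 to -2.46, while the same 3 male-biased genes fell and the median of that list moved from -1.32 to 0.31 (limma). In set 2 the covariate gave 5 lower of 10 male-biased genes (Cyp7b1, Hsd3b5, Mup20, Slco1a1 and Ugt2b38) and 2 lower of 12 female-biased genes (A1bg and Prlr), with none higher, against 390 lower of 17376 genes (edgeR). Over both sets the same 3 male-biased genes and Prlr, the prolactin receptor gene (-2.64, adjusted p = 0.0172), fell in the exact permutation test, against 7.37% of all genes called lower.

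The sex-biased lists were also read within the classes of Y expression in set 2, and no difference between the classes was tested. In the class with Y expression, 9 of 10 male-biased genes were below the control in all 3 A3B livers, with a median difference of -3.15, against 14.4% of all genes below. Cyp7b1 was at 167.1 TPM in the control and 8.23 TPM in the A3B mean, and Mup20, a major urinary protein gene, at 5790 and 606.2 TPM. Bcl6, a repressor that GH pulses shape, was the gene above the control. In the class without Y expression, 5 of 10 male-biased genes were below the control in all 3 A3B livers and 3 were above it, with a median difference of -1.05, against 13.6% of all genes below and 35.5% above. Among the 5, Slco1a1 was at 175.5 TPM in the control and 1.36 TPM in the A3B mean, and Hsd3b5 at 41.9 and 0.338 TPM. In the same class, 10 of 12 female-biased genes were below the control in all 3 A3B livers, with a median difference of -3.44. A1bg was at 877.0 TPM in the control and 1.05 TPM in the A3B mean, and Cyp3a44 at 231.5 and 5.71 TPM. In the class with Y expression, 3 of 12 female-biased genes were below the control in all 3 A3B livers and 4 were above it, against 14.4% and 58.6% of all genes, with a median difference of 0.01. Among those above was Cux2, a female-biased repressor, at 6.28 TPM in the control and 49.2 TPM in the A3B mean. With a single control per class these are values of those animals.

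**Figure D2:**
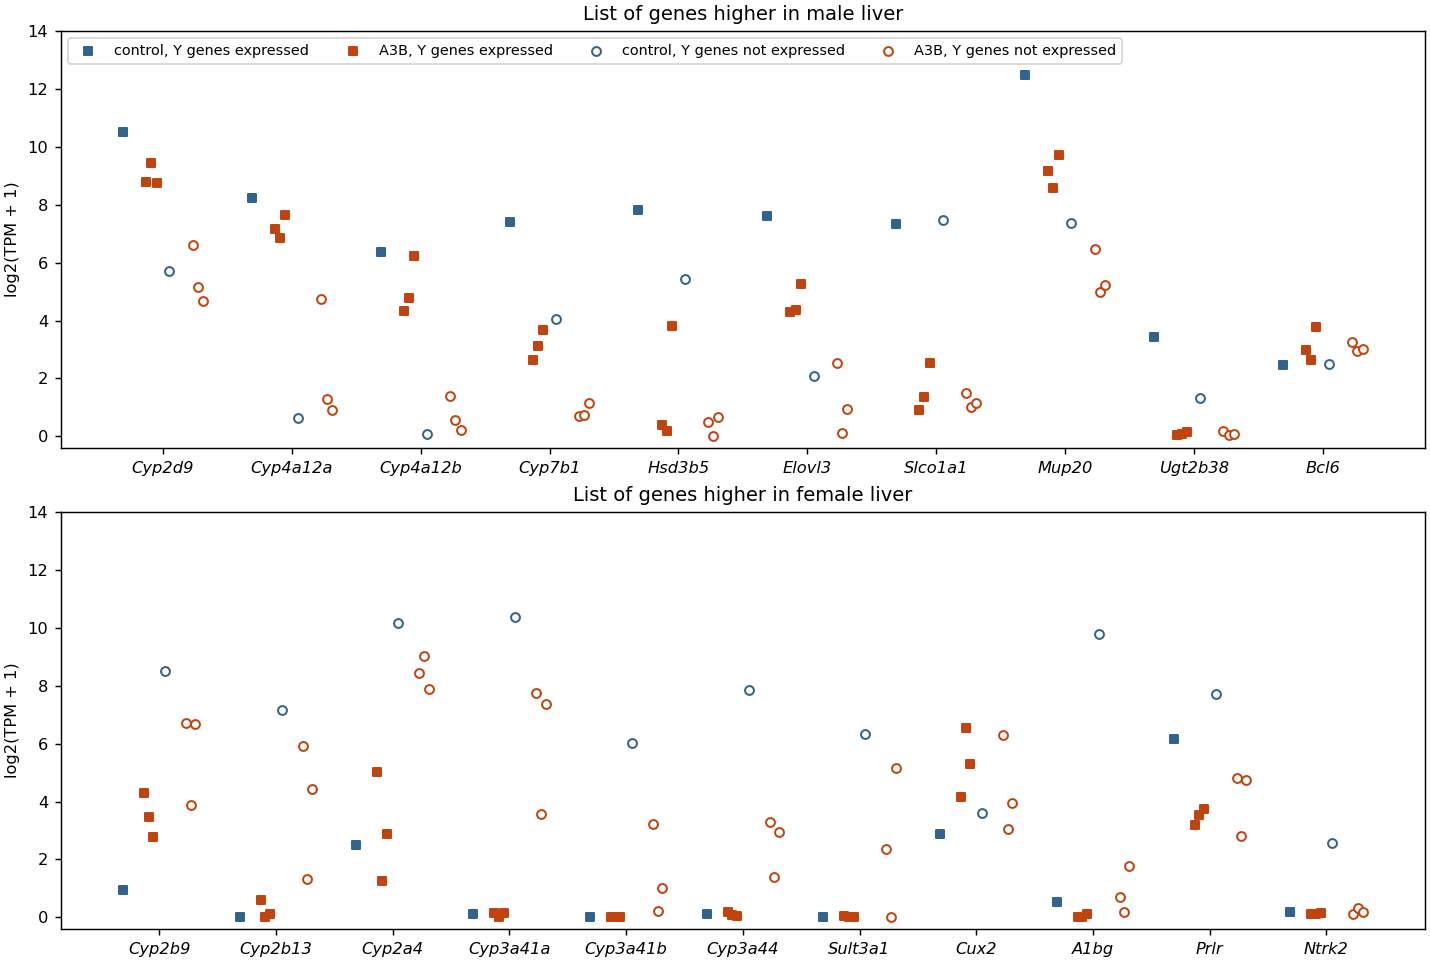
Levels of the sex-biased genes in the livers of set 2, as log2(TPM + 1), with 1 point per animal, filled squares for livers that express Y-chromosome genes (1 control in blue, 3 A3B in red) and open circles for those that do not (1 control, 3 A3B). In the upper panel 9 of 10 male-biased genes lie lower in all 3 filled A3B squares than in the filled control, and in the lower panel 10 of the 11 female-biased genes drawn lie lower in all 3 open A3B circles than in the open control.

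Few further genes of the pathway were called in the livers. Of 13 genes of GH receptor signalling beyond the 10, none was called in set 2 (median log2 fold change 0.06). By edgeR 3 of the 13 had an unadjusted p under 0.05 (Stat5a, Grb2 and Irs2), and the list was not read with another tool. In set 1, 1 of these 13 rose by limma, against 6.07% of all genes called higher: Stat3, the factor downstream of interleukin-6 type receptors (1.36, adjusted p = 0.0475). Over both sets Grb2, an adaptor, Ptpn1, a phosphatase of JAK2, and Irs2, an insulin receptor substrate, rose in the exact permutation test (1.03, 0.81 and 2.03, with adjusted p of 0.0115, 0.0350 and 0.0499), against 28.4% of all genes called higher. Of 14 other IGF ligand, receptor and binding protein genes, none was called in set 2 by edgeR, where 3 had an unadjusted p under 0.05, and none of the 8 tested in set 1 by limma, where 3 had. Over both sets 1 of 7 of these genes tested fell, against 7.37% of all genes called lower. This was Igfbp4, a binding protein gene with high hepatic levels (-1.36; exact permutation test, adjusted p = 0.0499). It was at 1399.9 and 1263 TPM in the set 2 controls and at 284.1 to 1385 TPM in the A3B livers, of which 5 of 6 were below both controls.

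Lists of cytokine and of fasting genes were read beside the axis, since Socs3 and Igfbp1 belong to those responses too. In set 2, 1 of 10 STAT3 cytokine genes tested rose, against 1.25% of all genes called higher. The gene was Lcn2, lipocalin 2 (log2 fold change 7.21; edgeR, adjusted p = 0.00527). Lcn2 was at 5.21 and 12.8 TPM in the controls and ran from 490.3 to 2768 TPM in the A3B livers. It also rose in set 1 (4.63; limma, adjusted p = 0.0109) and over both sets, together with Saa3 (5.97 and 1.70; exact permutation test, adjusted p = 0.0115 and 0.0267). These were 1 of 9 genes tested in set 1 and 2 of 8 over both sets, against 6.07% and 28.4% of all genes called higher. Of 12 fasting and stress genes, 1 rose in set 2, against the same 1.25% of all genes: Ppargc1a, a coactivator of gluconeogenesis (log2 fold change 2.85; edgeR, adjusted p = 0.0373). None was called in set 1 by limma, where 4 of the 12 had an unadjusted p under 0.05. Over both sets 4 of 12 rose, against 28.4% of all genes called higher, among them Ppargc1a (2.37), Hif1a (1.47) and Atf4 (0.68), with adjusted p of 0.0115, 0.0223 and 0.0172 by the exact permutation test. Their part in the values of Igfbp1 and Socs3 was not tested.

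In the pancreas, Socs3, Stat5b and Socs2 were higher in every A3B mouse than in both controls, as TPM and with TMM scaling. The direction of Ghr, Cish, Igf1, Igfals, Igfbp1 and Igfbp2 depended on the scale. By edgeR on TMM-scaled counts 4 of 10 genes were called, Socs3 and Stat5b higher and Ghr and Cish lower, against 31.9% of 19142 genes (17.0% higher and 14.9% lower). With counts scaled by their totals alone 5 genes were called, all higher, and neither Ghr (0.65) nor Cish (0.67) was lower. That scaling moved the median over all genes from 0.09 to 2.29 and the calls from 3252 higher and 2848 lower to 13483 and 210. As TPM, 71.9% of all genes did not overlap between the groups, 70.8% higher in A3B mice and 1.07% lower. Acinar markers summed to 379700 and 385553 TPM in the control pancreases and to 64868 to 173379 TPM in the A3B pancreases, so the enzymes took a larger share of the control libraries. Macrophage markers summed to 51.5 and 578.3 TPM in controls and to 2183 to 6366 TPM in A3B pancreases, and fibroblast and stellate markers to 41.1 and 183.1 TPM and to 983.3 to 1512 TPM. These markers moved with the values below, and their part was not tested.

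Socs3 was at 0.403 and 1.93 TPM in the control pancreases. In the A3B pancreases it was at 29.7 TPM at the lowest, 46.4 TPM at the median and 56.0 TPM at the highest. The 6 A3B values were close together and all above both controls, with a mean 22.9-fold that of control 168 and 109.6-fold that of control 45 as TPM. Socs3 rose by 3.20 (SE 0.42) on the log2 scale (edgeR, adjusted p = 0.000545), and the adjusted p ran from 2.62e-13 to 0.00544 over the alternatives. Stat5b was at 0.905 and 2.43 TPM in controls and at 10.6 to 16.4 TPM in A3B pancreases, with a median of 11.0 TPM. It did not overlap, and as TMM-scaled CPM (counts scaled to the library and not to length) it was at 18.8 and 24.1 CPM in controls and 31.7 to 39.7 CPM in A3B mice. Stat5b rose by 0.70 (SE 0.20; edgeR, adjusted p = 0.0211), and lost the call without control 45 (0.55, adjusted p = 0.149).

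Ghr was at 11.1 and 18.8 TPM in the control pancreases and at 17.9 to 31.2 TPM in the A3B pancreases, with 5 of 6 above both controls. As TMM-scaled CPM the same libraries read 90.6 and 75.3 in controls and 24.9 to 32.2 in A3B mice, all below. Ghr thus fell by 1.60 (SE 0.17) with TMM scaling (edgeR, adjusted p = 0.000259), and had log2 fold changes of 0.65 with totals and 0.71 on log2(TPM + 1). Cish was at 3.83 and 11.8 TPM in controls and at 10.0 to 21.7 TPM in A3B mice, and at 54.2 and 79.1 CPM against 18.2 to 36.2 CPM after TMM scaling. It fell by 1.43 (SE 0.26) with TMM scaling (edgeR, adjusted p = 0.00258), and had log2 fold changes of 0.67 with totals and 1.06 on log2(TPM + 1). The order of the groups was opposite on the TPM and TMM scales for both genes.

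Igf1 was at 22.6 and 24.2 TPM in the control pancreases and at 49.1 to 84.4 TPM in the A3B pancreases, and at 85.1 and 57.5 CPM against 32.4 to 61.6 CPM after TMM scaling. Its log2 fold change was -0.52 with TMM scaling (edgeR, adjusted p = 0.148) and 1.79 with totals. Igfbp3, made by stromal and endothelial cells in many tissues, was at 4.55 and 9.56 TPM in controls and 31.5 to 87.2 TPM in A3B mice (log2 fold change 0.78; edgeR, adjusted p = 0.173). Socs2 was at 1.17 and 6.27 TPM and at 19.9 to 31.4 TPM (0.71; edgeR, adjusted p = 0.0648), and passed without control 168 (1.18, adjusted p = 0.0188). Both were higher in all 6 A3B pancreases as TPM, as were 70.8% of all genes. As TMM-scaled CPM Socs2 was still higher in all 6, at 11.4 and 19.96 CPM in controls and 21.5 to 33.6 CPM in A3B mice. Igfbp3 overlapped on that scale, at 47.5 and 43.2 CPM in controls and 35.5 to 136.8 CPM in A3B mice. The hepatic genes of the axis were scarce here. Igfals was at 1.20 to 5.33 TPM, Igfbp2 at 0.310 to 2.64 TPM and Igfbp1 at 0 to 9.94 TPM over all 8 pancreases. Hepatocyte markers summed to 25.6 and 69.1 TPM in control pancreases and to 116.6 to 1000.3 TPM in A3B pancreases, and their part in these levels was not tested. None of the 3 was called by edgeR (adjusted p = 0.0740, 0.0658 and 0.486 for Igfals, Igfbp2 and Igfbp1). With TMM scaling Igfals passed without A3B 137 (-1.55, adjusted p = 0.0479), and Igfbp2 without A3B 44 (-2.08, 0.0341) or control 45 (-2.34, 0.0407), and both passed with DESeq2 (-1.37 and -1.78, adjusted p = 0.0427 and 0.0289). The direction turned on the other scales: Igfals had log2 fold changes of -1.33 with TMM, 0.99 with totals and 0.52 on log2(TPM + 1), Igfbp2 of -1.72, 0.21 and 0.11, and Igfbp1 of -1.83, 1.16 and 0.34. As TPM, Igfals had a mean of 3.62 in A3B mice and 2.03 in controls, with 4 of 6 above both controls.

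**Figure D3:**
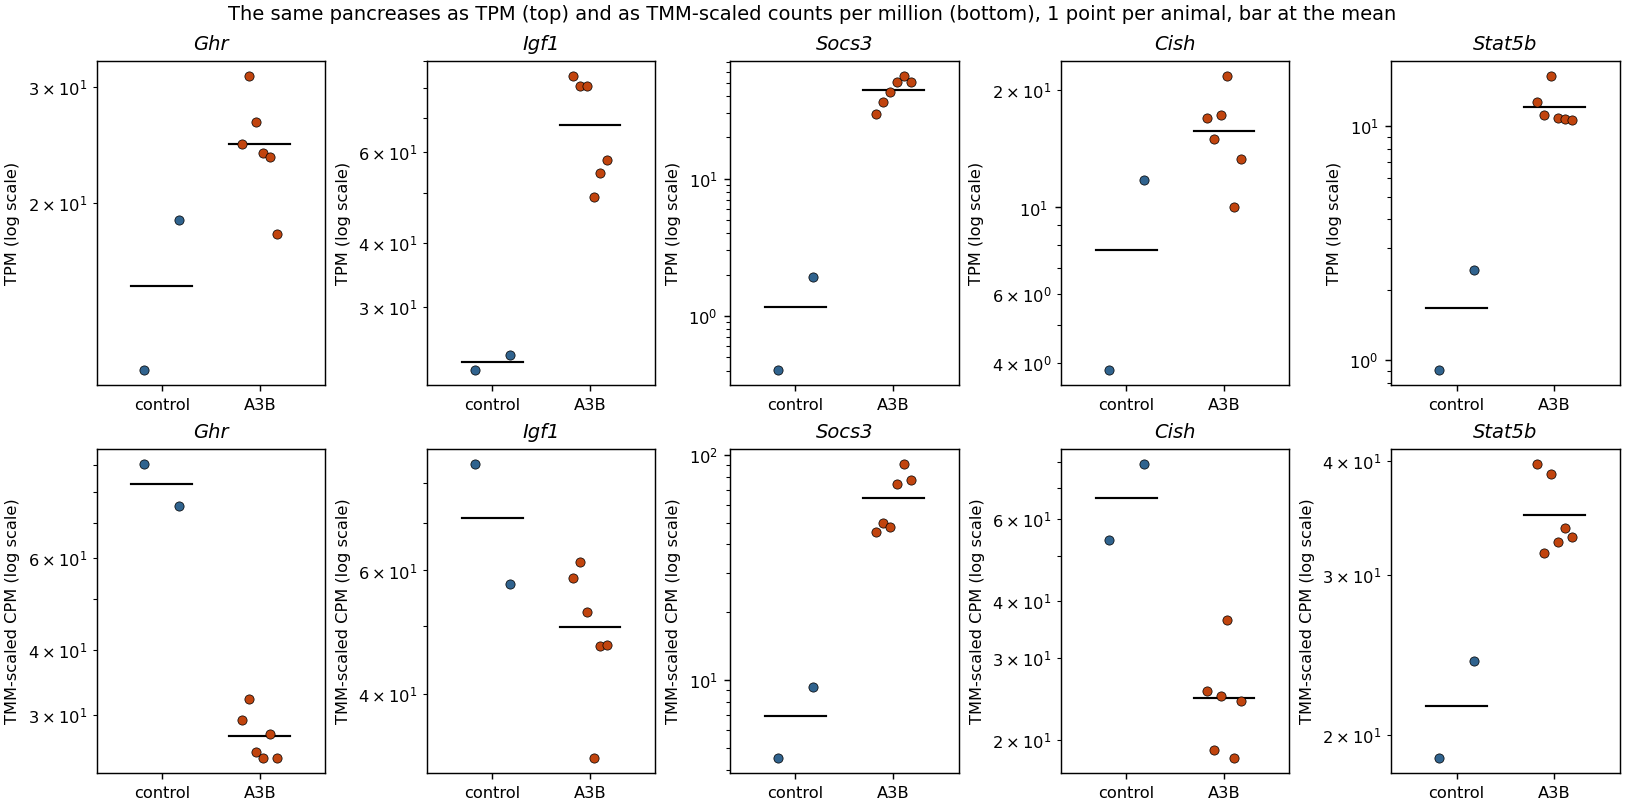
The same 2 control (blue) and 6 A3B (red) pancreases as TPM in the upper row and as TMM-scaled CPM in the lower row, both on log axes, with 1 point per animal and a bar at the group mean. Socs3 and Stat5b are higher in all A3B pancreases in both rows, whereas Ghr and Cish are higher in 5 of 6 A3B pancreases as TPM and lower in all 6 as TMM-scaled CPM, and Igf1 is higher in all 6 as TPM with a lower mean as TMM-scaled CPM.

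Of the 13 other GH receptor signalling genes, 7 rose in the pancreas with TMM scaling and none fell, with a median log2 fold change of 1.12, where all genes had a median of 0.09. Of all genes 17.0% were called higher and 14.9% lower, the shares against which each list count of the pancreas here is set. Among them were Ptpn1 (1.82), Stat3 (1.59) and Grb2 (1.29), with adjusted p of 0.000401, 0.00336 and 0.00137 by edgeR. Of the 14 other IGF genes, 2 rose and 2 fell, near the share of all genes: Stc2, a stanniocalcin that inhibits a protease of IGF binding proteins, fell by 2.47 and Igfbp5 by 1.95, while Igfbp7 rose by 1.33 (edgeR, adjusted p = 0.000309, 0.00348 and 0.00547). As TPM, Igfbp5 had means of 4.27 in controls and 4.40 in A3B mice, and Stc2 of 1.87 and 1.57. Of 12 cytokine genes 4 rose and 1 fell, led by Lcn2 (8.81), Lif (4.02) and Osmr (2.02), the ligand and receptor genes of the interleukin-6 family (edgeR, adjusted p = 0.000265, 0.000298 and 0.00150). Lcn2 was at 3.01 and 3.28 TPM in the control pancreases and ran from 3348 to 11171 TPM in the A3B pancreases. Of 12 fasting and stress genes 2 rose and 3 fell, among the latter Fgf21, an endocrine growth factor that blunts GH action (-5.53; edgeR, adjusted p = 0.000661). The sex-biased liver lists gave 1 call of 9 in the pancreas for the male-biased genes, Bcl6 (1.90), and 1 of 12 for the female-biased genes, Cux2 (-1.77, with a higher mean TPM in A3B mice, 1.84 against 0.930), by edgeR with adjusted p of 0.00127 and 0.00449. Lists were counted in the pancreas with TMM scaling only.

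An interaction term over the 16 samples of set 2 asked whether A3B and control differed by the same amount in both organs. Socs3 alone among the 10 was called, with a difference of 3.07 (SE 0.58) on the log2 scale, higher in the pancreas (edgeR, adjusted p = 0.00602), against 11.9% of 19927 genes called. Its log2 fold changes were 3.20 in pancreas and 0.29 in liver. With the mouse as a block, over the 7 mice that gave both tissues, the difference was 3.14 (edgeR, adjusted p = 0.0105). In that blocked fit Socs2 was called as well (2.24, adjusted p = 0.0401), against 1.97 without the block (edgeR, adjusted p = 0.110), so 2 genes were called with the block and 1 without. Socs2 was also called without A3B liver 125 (2.30, adjusted p = 0.0492). The effect on Ghr was less negative in the pancreas by 1.61 (edgeR, adjusted p = 0.0625), and this passed with DESeq2 (1.52, adjusted p = 0.0468) or without A3B liver 48 (1.81, 0.0258) or 153 (1.83, 0.0270). The difference for Stat5b was 1.19 (edgeR, adjusted p = 0.0623), and it passed without A3B liver 49 (1.09, 0.0460) or 125 (1.35, 0.0245). Igfbp1 had a difference of -6.57 (edgeR, adjusted p = 0.109), which passed with DESeq2 (-6.71, 0.0198) or without A3B pancreas 49 (-8.17, 0.0465). Its difference ran from -8.17 to 5.38 as single samples were left out, so its sign was not stable. Of the lists, 3 of 13 GH receptor signalling genes had a more positive effect in the pancreas (Jak2, Ptpn1 and Shc1), as had 3 of 10 male-biased liver genes, and 2 of 14 IGF genes were called in each direction (edgeR). The female-biased and cytokine lists gave 1 call each way of 12 and the fasting list 3 lower of 12. With counts scaled by totals 7 of 10 members of the axis were called, while the genes called in all went from 2369 to 8071. The median of all genes moved from 0.03 to 1.59.

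In the lung, Igfbp2 fell and Socs3 and Cish rose, so 3 of the 9 genes tested were called by limma, against 36.8% of 13651 genes (16.1% higher and 20.8% lower), a share near the background. Igfbp2, lower, and Socs3, Cish and Stat5b, higher, did not overlap between the groups, against 53.9% of all genes (30.6% lower and 23.3% higher). Endothelial markers, of which 8 of 8 were found, summed to 2495 to 3034 TPM in A3B lungs and 1229 to 1423 TPM in control lungs. Of the 7 tested, Lyve1 rose (2.13; limma, adjusted p = 0.00176), while Kdr (-0.70, adjusted p = 0.0433) and Emcn (-0.62, adjusted p = 0.0234) fell. Of the markers of other cells, Marco (1.40), Reln (1.17), Pdgfra (0.76) and Ppy (0.84) rose (limma, adjusted p = 0.00535, 0.0101, 0.0119 and 0.0130). Lyz2 (-0.51) and Sftpc (-0.33) fell (limma, adjusted p = 0.00729 and 0.0236). The part of these markers in the lung values was not tested. Igf1 was under the filter on low values, at 0.114 to 0.695 TPM in A3B lungs and 0.333 to 1.14 TPM in controls, and was not tested. Cish was at 202.7, 185.4 and 189.4 TPM in the controls and at 522.3, 463.6 and 444.4 TPM in the A3B lungs. The animals of each group were close together and the groups far apart. Cish rose by 1.30 (SE 0.10) on the log2(TPM + 1) scale (limma, adjusted p = 0.00173). Socs3 was at 28.7, 39.2 and 36.5 TPM in controls and at 122.8, 80.0 and 59.5 TPM in A3B lungs, all above the controls, and rose by 1.25 (SE 0.27; limma, adjusted p = 0.0146). Igfbp2 was at 258.3, 295.6 and 207.0 TPM in controls and at 136.6, 115.3 and 97.9 TPM in A3B lungs, all below the controls, and fell by 1.11 (SE 0.17; limma, adjusted p = 0.00612). Over the alternatives run, these adjusted p ran from 0.00171 to 0.0113 for Cish, from 0.0114 to 0.0465 for Socs3 and from 0.00614 to 0.0232 for Igfbp2.

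The remaining genes of the axis were not called in the lung. Socs2 was at 352.4, 256.1 and 250.6 TPM in controls and at 483.0, 340.8 and 358.4 TPM in A3B lungs, with a log2 fold change of 0.46 (limma, adjusted p = 0.0962). It passed without control 87, the lung labelled CAGs (0.62, adjusted p = 0.0459), and with log2(Alb TPM + 1) as a covariate (0.57, adjusted p = 0.0159), which was chosen after seeing the data. Stat5b was at 50.5, 54.7 and 48.5 TPM in controls and 55.5, 62.3 and 68.2 TPM in A3B lungs, above the controls in all 3 (0.27; limma, adjusted p = 0.0902). Ghr was at 4.08 to 4.54 TPM in controls and 3.32 to 4.63 TPM in A3B lungs (-0.08; limma, adjusted p = 0.619), and Igfbp3 at 59.3 to 96.4 TPM and 65.8 to 125.5 TPM (0.13; limma, adjusted p = 0.735). Igfbp1 was at 0, 0.987 and 0.0287 TPM in controls 87, 88 and 91 and at 0.0922, 10.0 and 7.09 TPM in A3B lungs 69, 70 and 74 (1.86; limma, adjusted p = 0.185). Without A3B lung 69 it passed (2.90, adjusted p = 0.0124). Alb, which lung cells are not known to make in quantity, was at 0.331, 245.0 and 23.6 TPM in controls and at 3.83, 189.8 and 216.4 TPM in A3B lungs. Igfbp1 per 100 TPM of Alb was 0, 0.403 and 0.122 in the control lungs and 2.41, 5.29 and 3.27 in the A3B lungs. In the livers of set 1 this ratio was also higher in A3B mice, at 12.8 to 18.1 against 0.337 to 1.72 in controls. Hepatocyte markers summed to 1.06 to 681.5 TPM in control lungs and 10.4 to 587.9 TPM in A3B lungs, and their part in the values of Igfbp1 was not tested. Igfals was at 2.21 to 14.0 TPM in controls and 2.34 to 6.81 TPM in A3B lungs (-0.25; limma, adjusted p = 0.797).

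**Figure D4:**
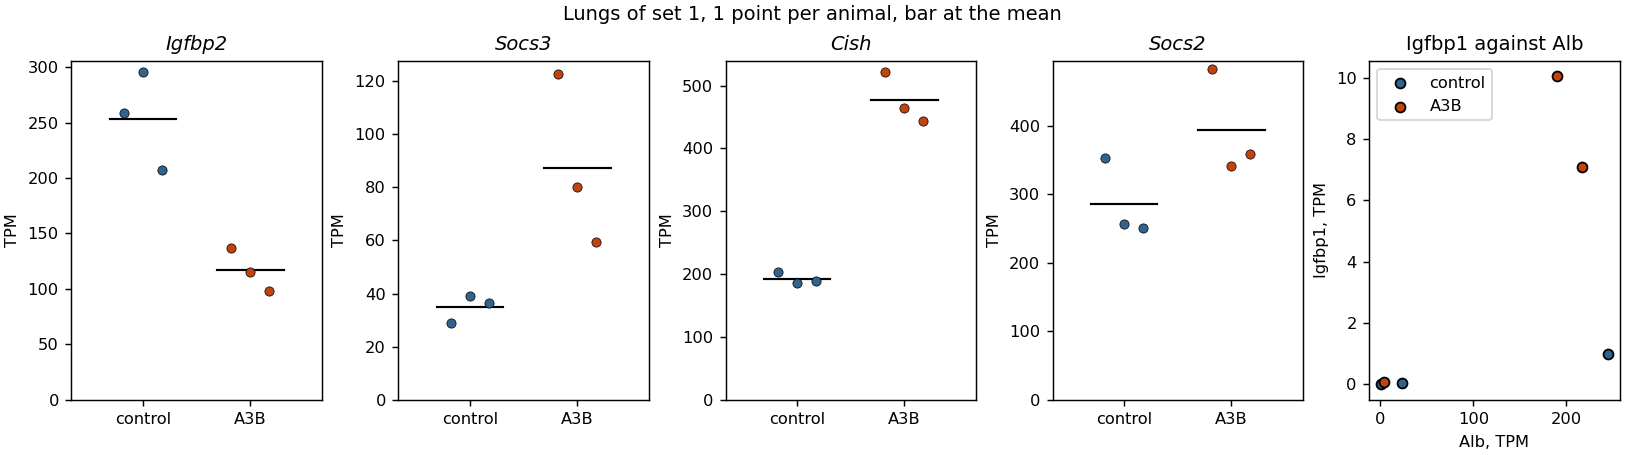
Levels of Igfbp2, Socs3, Cish and Socs2 in 3 control (blue) and 3 A3B (red) lungs in TPM on linear axes from 0, with a bar at the group mean, and Igfbp1 against Alb in the same lungs in TPM. Cish and Socs3 are higher and Igfbp2 is lower in all 3 A3B lungs, and the A3B lungs with 189.8 and 216.4 TPM of Alb hold more Igfbp1 than the control lung with 245.0 TPM.

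Of the 13 other GH receptor signalling genes, 5 rose and 2 fell in the lung, where 16.1% of all genes were called higher and 20.8% lower, with Irs2 (2.58) and Ptpn1 (0.82) higher and Irs1 (-0.90) lower (limma, adjusted p = 0.00221, 0.00504 and 0.00647). Of 12 other IGF genes tested 3 rose and none fell: Stc1 (1.66), Insr, the insulin receptor gene (0.75), and Igf1r, the IGF1 receptor gene (0.51), with adjusted p of 0.0112, 0.00644 and 0.0160 by limma. Of 9 cytokine genes tested 1 rose, Il6ra, the interleukin-6 receptor gene (1.30; limma, adjusted p = 0.00257). Of 12 fasting and stress genes 4 rose and none fell, led by Foxo3 (1.79), Ppargc1a (1.02) and Hif1a (0.79), with adjusted p of 0.00140, 0.00818 and 0.0157 by limma. Of the male-biased liver list, none of 3 genes tested was called by limma, where 1 had an unadjusted p under 0.05. Whether the A3B effect differed between lung and liver of set 1 was not tested.

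**Figure D5:**
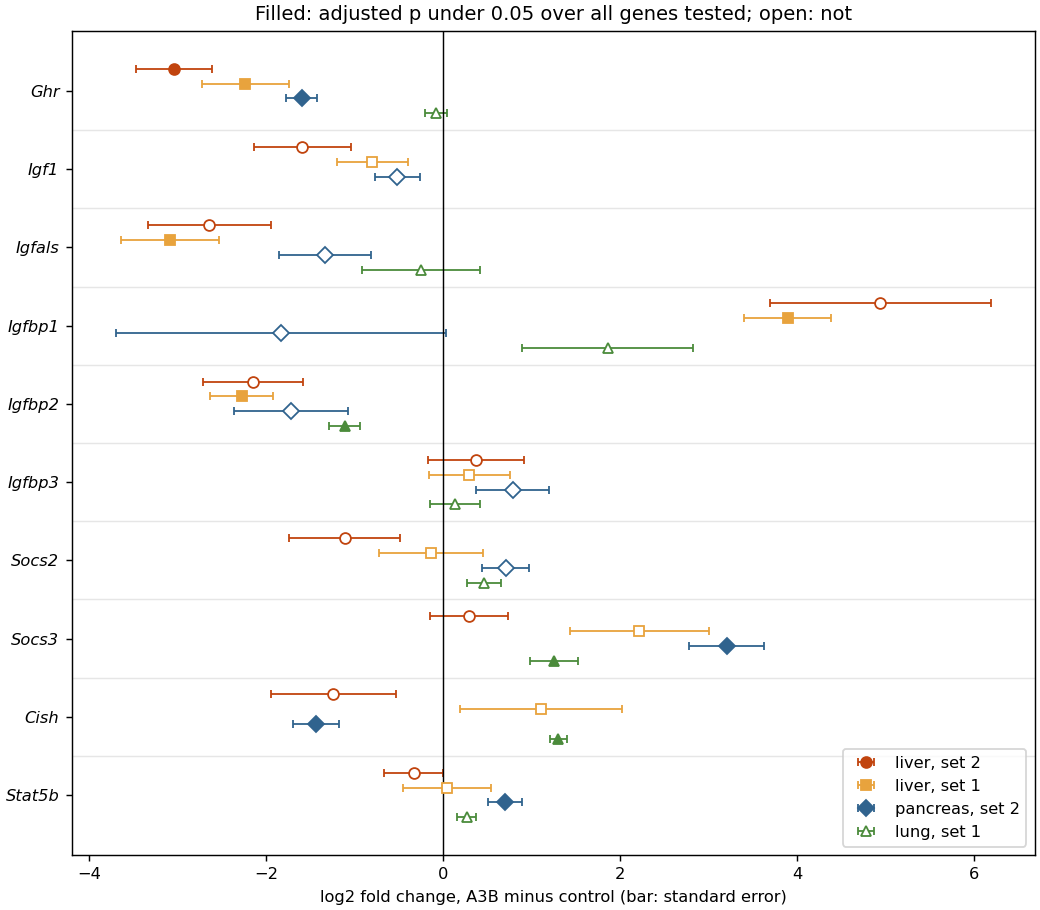
Log2 fold changes of A3B against control for the 10 genes in the livers of set 2 (circles), the livers of set 1 (squares), the pancreases of set 2 (diamonds, with TMM scaling) and the lungs of set 1 (triangles), with the standard error as a bar and filled symbols for an adjusted p under 0.05. Igfbp1 lies above 0 in both liver sets, at 4.94 and 3.89, while Ghr lies at -3.04 and -2.24, and in the pancreas Ghr, Cish, Igf1, Igfals, Igfbp1 and Igfbp2 lie below 0 with TMM scaling but were above 0 with counts scaled by totals (0.65 and 0.67 for Ghr and Cish).

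Among control animals the ligand and the carrier were read mostly in the liver, while Igfbp2 was scarce in the pancreas but also read in the lung. In set 2, control livers held 557.0 and 714.8 TPM of Igf1 against 22.6 and 24.2 TPM in control pancreases, and 114.5 and 145.7 TPM of Igfals against 1.57 and 2.48 TPM. Igfbp2 was at 370.8 and 435.8 TPM in control livers against 0.310 and 2.46 TPM in control pancreases. In set 1, Igfals was at 370.2 to 753.1 TPM in control livers against 2.21 to 14.0 TPM in control lungs, whereas Igfbp2 was at 427.2 to 586.4 TPM and 207.0 to 295.6 TPM. Cish and Socs2 were higher in every control lung than in any control liver: Cish was at 12.7 to 92.0 TPM in control livers and 185.4 to 202.7 TPM in control lungs, and Socs2 at 35.0 to 175.6 TPM and 250.6 to 352.4 TPM. No test was run between tissues.

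Over the 14 livers of both sets, each centred on its set, the genes whose log2(TPM + 1) followed Igf1 most closely among 4866 genes were Cyp2c54 (r = 0.93), Hsd11b1 (0.93), Apoa2 (0.92), Tmem86b (0.92) and Asgr2 (0.92). Of the axis, Igfals (0.84) and Ghr (0.70) followed Igf1, and Igfbp1 (-0.59) and Socs3 (-0.55) ran against it. Igfbp2 had an r of 0.28, Socs2 of 0.26, Cish of 0.19, Stat5b of 0.11 and Igfbp3 of -0.06. These livers share the difference between A3B and control, and the correlations describe it with no p.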

How the data were processed

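RNA-seq libraries (TruSeq Stranded kit) came from 28 samples. For set 2 the authors deposited kallisto estimated counts and TPM per transcript, made against mm10 (GRCm38), and these were summed per gene here (116728 of 119414 transcripts, 97.8%, matched a gene). For set 1 the authors deposited 1 table of TPM per gene made with GenomicAlignments and GenomicFeatures, whose column names state that duplicate reads were removed, and it gives no depth. Estimated counts were rounded, filtered with filterByExpr, scaled by TMM and fitted with edgeR 4.0.16 (robust quasi-likelihood). TPM were fitted with limma 3.58.1 (trend, robust) as log2(TPM + 1). P-values were adjusted by Benjamini-Hochberg over all genes tested, and DESeq2 1.42.0 was an alternative. R 4.3.3 and Python 3.11.15 were used, and the fits were tested on simulated data.

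The members and lists were chosen with earlier results of these data known. All 10 members were named, with up to 3 genes per list having the smallest p, and the 5 genes most like Igf1 (mean of at least 10 TPM in each set). Groups came from sample titles. Y-chromosome genes counted as expressed above a sum of 10 TPM. In 4 set 1 rows names were repeated, and these were left out. Liver and pancreas of the same mouse were paired by the mouse number in the labels: the correlation of their deviations from the group means was 0.08 to 0.25 in the A3B mice and 0.0075 in the controls. In the female-biased liver list 1 gene is not reported here, nor are the calls of that list in the lung.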

Additional observations from a re-analysis of the deposited data

Results flagged for a closer look

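Among 20 groups of 6 animals, 3 held an animal whose gap to the next exceeded 0.625 of the range, the limit that chance passes in about 1 group in 20. Igfbp1 in A3B liver 125 was at 3256 TPM, with a gap of 0.732 of the range. Igfbp1 in A3B pancreas 49 was at 9.94 TPM, with a gap of 0.857, in a tissue where the other 7 libraries were at 0 to 1.78 TPM. Stat5b in A3B pancreas 49 was at 16.4 TPM, with a gap of 0.647.

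The effect of A3B on Socs3 differed between tissues, being larger in the pancreas than in the liver by 3.07 on the log2 scale (edgeR interaction, adjusted p = 0.00602, from 5.38e-05 to 0.0471 over the alternatives).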

How the results depend on the processing

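Leaving out single controls or single A3B livers changed liver calls, and a fit that leaves 1 control assumes that it varies like the A3B animals. Scaling turned 6 of 10 axis genes in the pancreas, and the depth of set 1 is unknown. Of 236 values recomputed under other settings, 188 kept their direction and their side of the threshold, 22 newly passed, 6 no longer passed and 20 changed sign. Of 574 values with single animals left out, 498, 20, 23 and 33 did so in that order. The cause of these moves was not tested.

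In the livers of set 2, 1 axis gene was called, against 2 with counts scaled by totals, 4 with DESeq2 (Ghr, Igfals, Igfbp1 and Igfbp2), 2 with limma on log2(TPM + 1), and 0 to 4 with single livers left out (0 without either control, 4 without A3B 49). Genes called in all were 636, against 1119 with totals, 2351 with DESeq2 (1290 higher and 1061 lower) and 73 to 1596 with livers left out. In the pancreas 4 were called, against 7 with limma on log2(TPM + 1) and 4 to 5 with animals left out, and genes called in all were 6100, against 13693 with totals, 11557 with limma and 3826 without control 45. For the difference between tissues 1 was called, against 7 with totals, 3 with DESeq2, 2 with the mouse as a replicate block and 1 to 3 with samples left out, and 2369 genes in all, against 8071, 3747, 1562 and 546 to 3408. The block changed no other call. In the livers of set 1, 4 were called, against 0 with no filter on low values (54 genes in all against 913) and 0 to 4 with livers left out (1 to 1562 genes), with 0 without control 91, control 92 or A3B 23. Y expression as a covariate gave 1592 genes there. It could not be fitted in the lung, where Y genes were expressed in no sample, and 3 to 4 were called with lungs left out (2998 to 4579 genes, against 5029). In the livers of both sets 5 were called, against 3 to 6 with livers left out (3 without control 45; 1736 to 4214 genes, against 3629), and the shift to the same median moved the split of calls from 2881 higher and 748 lower to 1256 and 1698.

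Signs changed as follows, as log2 fold changes. In the livers of set 2 Stat5b was 0.083 with totals and 0.038 with limma on log2(TPM + 1). In the pancreas with totals Ghr was 0.65, Igf1 1.79, Igfals 0.99, Igfbp1 1.16, Igfbp2 0.21 and Cish 0.67, and with limma on log2(TPM + 1) they were 0.71, 1.46, 0.52, 0.34, 0.11 and 1.06. For the difference between tissues Cish was 1.47 with totals. With samples shifted to the same median Igfbp3 was -0.16 and Stat5b -0.42 in set 1, and Cish was -0.13 and Stat5b -0.39 over both sets. In the lung Igfbp3 was -0.017 with the Alb covariate.

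With animals left out, values crossed 0 in the livers of set 2 for Igfbp3 (-0.049 to 0.73), Socs3 (-0.31 to 1.01) and Cish (-2.16 to 0.78), and in the pancreas for Igfbp1 (-3.39 to 10.43). The difference between tissues crossed 0 for Igfbp1 (-8.17 to 5.38), Igfbp2 (-0.031 to 1.89) and Cish (-2.13 to 0.80). In set 1 livers Igfbp3 (-0.085 to 0.62), Socs2 (-0.83 to 0.31) and Stat5b (-0.26 to 0.51) crossed 0, in the lung Ghr (-0.17 to 0.019), Igfals (-0.68 to 0.43) and Igfbp3 (-0.11 to 0.35), and over both sets Cish (-0.31 to 0.89) and Stat5b (-0.15 to 0.28).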

Other observations

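A3B liver 48 divided its Igfals and Igfbp2 reads among transcripts unlike the other livers of set 2. The full-length coding transcript of Igfals made up 5.32% of its TPM there and 28.8% to 42.0% in the other 7 livers. A processed transcript made up 92.3% in liver 48. That transcript also made up 50.8% and 58.1% in the controls, and its median over the A3B livers was 41.6%. The full-length coding transcript of Igfbp2 made up 17.6% of its TPM in liver 48 and 76.1% to 87.6% in the other 7 livers.

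Control liver 11, the set 1 liver with Y-chromosome expression, held 139.6 TPM of Cyp4a12a, a male-biased gene, against 0.0273 and 0.00982 TPM in controls 91 and 92. It held 1.42 TPM of A1bg, a female-biased gene, against 5251 and 6348 TPM in the other controls and 0.0480 to 179.4 TPM in the A3B livers. Among its axis genes, Ghr (21.7 TPM), Igfbp1 (24.6 TPM) and Stat5b (89.2 TPM) were the highest of the 3 controls and Igfals (370.2 TPM), Socs2 (35.0 TPM) and Cish (12.7 TPM) the lowest.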
